A study of Mus musculus with 18 samples.

Results

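LXR targets and macrophage lipid efflux genes were followed through RAW264.7 macrophages and mouse liver. The set was given by name and holds 10 genes, the liver X receptors Nr1h3 and Nr1h2 and the genes Abca1, Abcg1, Apoe, Pltp, Lpl, Scarb1, Msr1 and Mylip. Each expression table lists 21441 genes and holds 9 of the 10, while Mylip (IDOL), a ubiquitin ligase for lipoprotein receptors, was not analysed here. In macrophages 8 of these 9 genes, and in liver all 9, had a mean above 1 FPKM (fragments per kilobase of transcript, scaled between libraries), the minimum for a test.

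The study asked how moringa isothiocyanate-1 (MIC-1), an isothiocyanate of moringa seed, changes the response to lipopolysaccharide (LPS), the outer membrane component of Gram-negative bacteria. RNA was sequenced from 9 libraries of RAW264.7 cells, a macrophage-like mouse cell line, and 9 of liver, with 3 control, 3 LPS and 3 LPS+MIC-1 libraries in each. All samples are labelled wild type C57BL/6. The mice were male, of an age not given in the sources used here, and each received vehicle or MIC-1 by gavage for 3 days and then saline or LPS. In liver the control mice had saline, the LPS mice 10 mg/kg LPS, and the LPS+MIC-1 mice 80 mg/kg MIC-1 before 10 mg/kg LPS, and tissue was taken 16 h after the injection. The macrophage labels repeat these doses for mice, whereas the headers of the macrophage table give 10 µM MIC-1, as does the series design for both sample types, and the LPS concentration of the sequenced cultures is not given in the sources used here. Nothing ties the macrophage libraries to separate cultures, so their P-values measure the spread between these libraries, which may be technical.

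Liver X receptors (LXRs) are nuclear receptors for oxysterols that pair with retinoid X receptors on direct repeats in the DNA spaced by a few bases (DR4 elements) and switch on genes that move cholesterol out of the cell. In macrophages loaded with lipoprotein cholesterol, Abca1 hands cholesterol to lipid-poor apolipoproteins and Abcg1 to mature high-density lipoprotein (HDL), while Apoe and Pltp accept and remodel the lipid outside the cell. The scavenger receptor Msr1 takes modified lipoproteins up, Scarb1 exchanges cholesterol with HDL, and Lpl releases fatty acids from triglyceride. In liver the same receptors drive fatty acid synthesis and biliary sterol export, and bacterial products are known to damp LXR targets in macrophages.

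Promoter sequences from RefSeq on GRCm38.p6 were at hand for 6 of the 10 genes. The 250 bases before the annotated start are printed for Abca1 and Pltp, the members with the largest Log2FC upward and downward between LPS+MIC-1 and LPS in macrophages. The first lies on the minus strand at chr4:53159896-53160145 and the second on the minus strand at chr2:164857709-164857958. Capitals mark a DR4 match.
Abca1: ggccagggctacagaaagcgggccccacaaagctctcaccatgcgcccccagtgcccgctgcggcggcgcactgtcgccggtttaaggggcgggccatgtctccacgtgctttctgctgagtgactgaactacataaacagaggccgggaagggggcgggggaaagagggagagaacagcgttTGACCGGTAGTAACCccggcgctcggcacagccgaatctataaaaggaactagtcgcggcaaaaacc
Pltp: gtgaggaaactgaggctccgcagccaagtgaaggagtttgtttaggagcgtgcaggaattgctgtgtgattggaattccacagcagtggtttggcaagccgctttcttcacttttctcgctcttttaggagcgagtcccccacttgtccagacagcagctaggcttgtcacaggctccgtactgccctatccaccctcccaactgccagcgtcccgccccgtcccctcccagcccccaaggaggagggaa
The consensus, AGGTCA repeated after 4 free bases, and a relaxed form, AGGTNA, 4 free bases and NGGTCA, were searched on both strands and matched no member promoter. They were in 0.0152% and 0.0791% of 32851 promoter windows of this length. With the first base of the relaxed form left free as well, a form added after the first search and one that includes every match of it, 0.177% of windows held a match. Among the members Abca1 alone held 1, on the strand opposite to the gene, from 67 to 53 bases before the start, and the Pltp window held none. An antioxidant response core (TGAC, 3 free bases, GC) and an NF-κB core (GGG, 2 free bases, TTTCC), present in 10.2% and 1.41% of windows, matched no member promoter. These matches describe letters in these windows only.

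The macrophage libraries held about 13.4 to 17.3 M reads in genes of known length, estimated from the steps between low FPKM values. The liver controls held 3.5 to 8.1 M and the treated liver libraries 9.6 to 15.0 M. Libraries are numbered by their order in the tables. LPS library 2 of the macrophages lay at the level of the controls: its median absolute log2 difference from the control mean was 0.129, against 0.744 and 0.738 for LPS libraries 1 and 3. Ccl5, a chemokine that LPS induces, was 115 FPKM in it, 46.7 to 101 in the controls and 24673 and 25371 in the other LPS libraries. Each macrophage result is therefore given with all 9 libraries and without this one (8 libraries), which leaves LPS libraries 1 and 3, a close pair with a median difference of 0.0913. In liver, library 2 of both treated groups stood apart from libraries 1 and 3 (0.350 to 0.552 against 0.112 to 0.162 within the pairs), and control 1 from controls 2 and 3 (0.427 and 0.477 against 0.196). Gapdh, a glycolytic enzyme, was 430, 68.1 and 27.7 FPKM in the liver controls, 1001, 158 and 914 in the LPS group and 520.3, 169 and 521 with LPS+MIC-1. Eif4g1 and Rab7, which every cell uses, were each listed at 0 in 1 liver control, so a liver value of 0 may be a failed estimate.

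**Figure D1:**
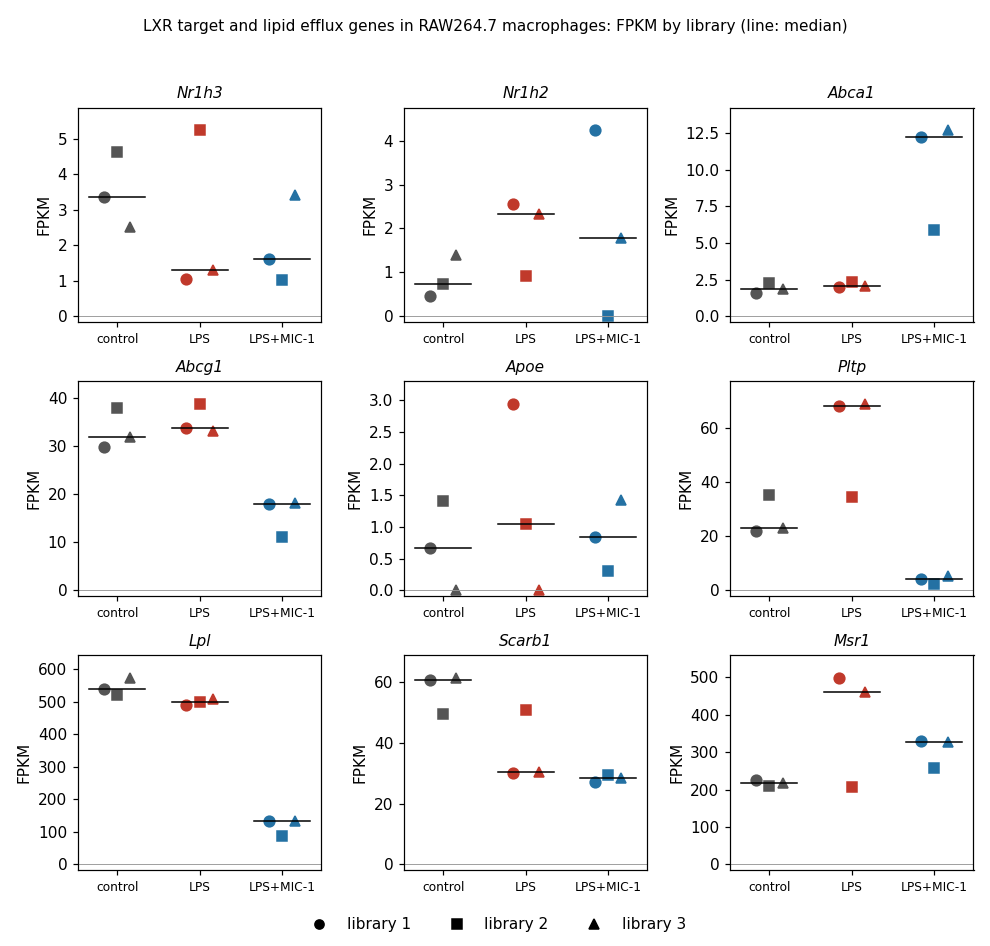
FPKM (y axis, from 0) of the 9 members with a row in RAW264.7 macrophages, by treatment (x axis). Each point is a library, its shape gives the library number and the line is the median of 3. Abca1 was highest and Pltp, Lpl and Abcg1 lowest in the LPS+MIC-1 libraries, and LPS library 2 (square) sat with the controls for Pltp, Msr1, Scarb1 and Nr1h3.

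In untreated macrophages, by FPKM, a level per transcript length, Lpl was the highest member (545 ± 26.1, SD, n = 3), followed by Msr1 (217 ± 8.31), Scarb1 (57.1 ± 6.75), Abcg1 (33.2 ± 4.28) and Pltp (26.7 ± 7.48). Nr1h3 (3.50 ± 1.06) and Abca1 (1.91 ± 0.353) were low, and Nr1h2 and Apoe reached at most 1.39 and 1.40 FPKM. Of the neighbours in this order, Abcg1 and Pltp overlapped, as did Nr1h2 and Apoe, and the others did not. The cells carried the macrophage markers, 6 of 7 with a row, at a summed 10951 to 12848 FPKM in controls, 12676 to 13387 in the LPS group and 11717 to 12866 with LPS+MIC-1. Most of this sum was Lyz2, lysozyme, at 8726 to 10746 FPKM over all libraries, and other markers changed under it. Csf1r, a growth factor receptor, was 406 to 423 FPKM in controls, 109 and 108 in LPS libraries 1 and 3, 409 in LPS library 2 and 160.3 to 245 with LPS+MIC-1. Adgre1 (listed as Emr1), the F4/80 antigen, was 37.2 to 42.3 FPKM in controls, 278 and 290.0 in LPS libraries 1 and 3, 41.2 in LPS library 2 and 115 to 198 with LPS+MIC-1. Itgam, an integrin, was 58.4 to 96.95 FPKM in controls, 211 and 216 in LPS libraries 1 and 3, 98.3 in LPS library 2 and 325 to 343 with LPS+MIC-1. Their part in the member values was not tested.

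In the macrophages Abca1 was higher and Abcg1, Lpl and Pltp were lower with LPS+MIC-1 than with LPS, whereas the control and LPS libraries overlapped for Abca1 and Abcg1. With 9 libraries, limma called 0 of 8 members between LPS and control, where it called 0% of the 9905 genes tested. At an unadjusted P below 0.05 stood 3 members and 4928 genes (49.8%). A call needed an adjusted P-value under 0.01 with a Log2FC beyond 1 in size, on log2(FPKM + 0.5), a scale that understates the change of low genes. With 8 libraries Msr1 and Pltp were called higher, 2 of 8 members against 34.2% of all genes (16.3% higher). Between LPS+MIC-1 and LPS, 4 of 8 members were called, 1 higher and 3 lower, against 3.87% of all genes (2.06% higher, 1.81% lower) with 9 libraries and 23.3% (11.3% higher, 12.0% lower) with 8. The 4 were Abca1, Abcg1, Lpl and Pltp in both fits. The median Log2FC of the tested members was -0.37, beside -0.01 over all genes, and with 8 libraries -0.70 beside 0.01.

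Abca1 (chr4:53043659-53172767 in mm9, minus strand), the transporter that lipidates apolipoprotein A-I, was 1.58, 2.28 and 1.85 FPKM in control libraries 1 to 3, 2.01, 2.36 and 2.10 in the LPS group and 12.2, 5.87 and 12.7 with LPS+MIC-1. All LPS+MIC-1 libraries were above all others, library 2 the least, and the control and LPS libraries overlapped. Its mean was 4.76-fold higher with LPS+MIC-1 than with LPS (10.3 ± 3.81 against 2.16 ± 0.183, n = 3), a Log2FC of 1.95 (SE 0.28, adjusted P-value 0.00388 by limma), and 2.00 with 8 libraries (adjusted P-value 0.000721). Between LPS and control its Log2FC was 0.15, with a 95% interval from -0.50 to 0.80.

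Abcg1 (chr17:31194643-31252722 in mm9, plus strand), the transporter that exports cholesterol to HDL, went the other way. It was 29.7, 37.9 and 31.8 FPKM in controls, 33.7, 38.7 and 33.0 in the LPS group and 17.9, 11.0 and 18.1 with LPS+MIC-1. The LPS+MIC-1 libraries were below all others, and the control and LPS ranges overlapped. The mean was 2.24-fold lower than with LPS (Log2FC -1.17, SE 0.20, adjusted P-value 0.00743 by limma), and the Log2FC was -1.10 with 8 libraries (adjusted P-value 0.00229). This call lay close to the threshold, and with 9 libraries it was also lost without the filter on low genes. With 9 libraries it was lost in 8 of the 9 fits that left out 1 library, all but the one without LPS library 2, with adjusted P-values of 0.0116 to 0.0265. With 8 libraries it was lost without LPS library 1 or 3 (adjusted P-values 0.0174 and 0.0160) and without LPS+MIC-1 library 2, where the Log2FC was -0.87.

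Abca1 itself fell short of the threshold with 9 libraries when control 1 or 3, LPS 1 or 3, or LPS+MIC-1 1 or 3 was left out, at adjusted P-values of 0.0111 to 0.0229 and Log2FC values from 1.76 to 1.95. With 8 libraries no single library removed its call. Lpl and Pltp stayed past the threshold in each of the fits that left out 1 library in this comparison. With 9 libraries all 4 calls were lost with only the LPS and LPS+MIC-1 groups in the fit or with libraries 1 and 3 averaged.

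Pltp (chr2:164665018-164683211 in mm9, minus strand), the phospholipid transfer protein that remodels HDL, changed in both comparisons. It was 22.0, 35.4 and 22.9 FPKM in controls, 67.9, 34.3 and 68.9 in the LPS group and 4.15, 2.43 and 5.46 with LPS+MIC-1. LPS libraries 1 and 3 were above every control, LPS library 2 was within the control range, and the LPS+MIC-1 libraries were below all others. The Log2FC between LPS and control was 1.04 (adjusted P-value 0.0777 by limma) with 9 libraries and 1.37 (adjusted P-value 0.00407) with 8. This second call was lost when control 1, control 3, LPS 1 or LPS 3 was also left out (adjusted P-values 0.0145 to 0.0252). With LPS+MIC-1 the mean was 14.2-fold lower than with LPS, at 4.02 ± 1.52 against 57.0 ± 19.7 FPKM (n = 3), a Log2FC of -3.66 (SE 0.36, adjusted P-value 0.000918 by limma) and of -3.99 with 8 libraries (adjusted P-value 2.18e-05). It was also 6.66-fold lower than in controls.

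Lpl (chr8:71404390-71431347 in mm9, plus strand), the lipase that macrophages secrete, was 539.7, 522 and 574 FPKM in controls, 489, 501 and 507 in the LPS group and 133, 86.0 and 133 with LPS+MIC-1. The LPS libraries lay just below the controls and the LPS+MIC-1 libraries far below both. Its mean was 4.25-fold lower with LPS+MIC-1 than with LPS (Log2FC -2.11, SE 0.18, adjusted P-value 0.000642 by limma, and 3.66e-05 with 8 libraries). Between LPS and control the Log2FC was -0.13, with an interval from -0.53 to 0.28.

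Msr1 and Scarb1 are the surface receptors of the set. Msr1, scavenger receptor A, was 225, 209 and 218 FPKM in controls, 499, 206 and 461 in the LPS group and 329, 257 and 327 with LPS+MIC-1. LPS libraries 1 and 3 were the highest, LPS library 2 was at the control level, and the LPS+MIC-1 libraries lay between control and the LPS pair. Its Log2FC between LPS and control was 0.73 (adjusted P-value 0.0961 by limma) with 9 libraries and 1.14 (adjusted P-value 5.08e-05) with 8. For LPS+MIC-1 against LPS it was -0.26 (adjusted P-value 0.570) and, with 8 libraries, -0.66 (adjusted P-value 0.00127), which did not reach the fold threshold.

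Scarb1, the HDL receptor, was 60.6, 49.3 and 61.3 FPKM in controls, 30.0, 50.8 and 30.3 in the LPS group and 27.1, 29.4 and 28.4 with LPS+MIC-1. LPS libraries 1 and 3 and the LPS+MIC-1 libraries were all below the controls, and LPS library 2 was within the control range. The Log2FC between LPS and control was -0.65 (adjusted P-value 0.0777 by limma), and with 8 libraries -0.90 (adjusted P-value 9.97e-05), short of the fold threshold. Against control it was -0.99 with LPS+MIC-1 (adjusted P-value 0.0130, and 6.98e-05 with 8 libraries). Compared with LPS in 8 libraries it was -0.09, with an interval from -0.33 to 0.15.

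The receptors themselves were near the lower limit of these tables. Nr1h3 (LXRα), itself an LXR target, was 3.37, 4.63 and 2.52 FPKM in controls, 1.05, 5.26 and 1.30 in the LPS group and 1.62, 1.02 and 3.42 with LPS+MIC-1, from about 23 to 183 reads. LPS libraries 1 and 3 were below every control, and the LPS+MIC-1 libraries overlapped both groups. Its Log2FC between LPS and control was -0.63 (adjusted P-value 0.351 by limma), and with 8 libraries -1.23 (adjusted P-value 0.0210), which missed the threshold of 0.01 and passed it with only these groups in the fit. Nr1h2 (LXRβ), the receptor most tissues share, was listed at 0.468, 0.749 and 1.39 FPKM in controls, 2.55, 0.924 and 2.32 in the LPS group and 4.24, 0 and 1.78 with LPS+MIC-1. The LPS+MIC-1 libraries included both its highest and its lowest value, and no comparison called it (adjusted P-values 0.233 to 0.730 over both fits). Apoe, a lipid acceptor that many macrophages secrete, was 0.666, 1.40 and 0 FPKM in controls, 2.94, 1.05 and 0 in the LPS group and 0.843, 0.311 and 1.43 with LPS+MIC-1, at most about 26 reads, and was not tested. Its highest library, LPS 1, was also the highest for the hepatocyte gene Alb (5.46 FPKM, against 1.09 to 2.79 in the others). LPS library 3, the next highest for Alb (2.79 FPKM), had Apoe at 0. The 6 hepatocyte markers, all with a row, summed to 1.78 to 4.44 FPKM in controls, 3.57 to 9.73 in the LPS group and 3.22 to 4.12 with LPS+MIC-1, and their part in the Apoe values was not tested.

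Against control, LPS+MIC-1 called the same 4 members as against LPS, Abca1 higher (Log2FC 2.10, adjusted P-value 0.00243 by limma) and Abcg1 (-1.08, 0.00816), Lpl (-2.24, 0.000377) and Pltp (-2.62, 0.00261) lower. That is 4 of 8 members, against 5.59% of all genes (3.27% higher, 2.32% lower), or 15.7% (7.55% higher, 8.20% lower) with 8 libraries. With 9 libraries the count fell to 1 when control 1, control 3 or LPS+MIC-1 library 1 was left out and to 2 without control 2 or LPS+MIC-1 library 3, and Lpl kept its call in each of these fits. With 8 libraries it was 4 in each of them, but without control 2 or LPS+MIC-1 library 2 Scarb1 took the place of Abcg1, whose Log2FC was then -0.98 or -0.86. The comparisons with LPS and with control share the LPS+MIC-1 libraries.

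The scaling bears on these values, since the FPKM summed to about 1137530 and 1132900 in LPS libraries 1 and 3 and to 557136 to 652486 in the other macrophage libraries. Rescaled to the same sum, the median Log2FC of all genes with 8 libraries moved from -0.02 to -0.93 for LPS against control and from 0.01 to 0.74 for LPS+MIC-1 against LPS. The share of called genes that were higher moved from 47.5% to 9.80% and from 48.5% to 93.1%. With 9 libraries the share moved from 53.3% to 86.0% between LPS+MIC-1 and LPS, and from 58.5% to 78.0% against control. Abca1 (2.65), Lpl (-1.31) and Pltp (-3.21) kept their direction and call between LPS+MIC-1 and LPS with 8 libraries, Abcg1 (-0.31, adjusted P-value 0.195) kept its direction but not its call, and Msr1 (0.14) and Scarb1 (0.70) turned to higher. Between LPS and control, Pltp (0.39) and Msr1 (0.15) were no longer called and lay above the median of all genes, Lpl (-1.12), Nr1h3 (-1.96) and Scarb1 (-1.88) were then called lower, and Abca1 (-0.68) and Abcg1 (-0.96) turned to lower.

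The summed markers of neutrophils and inflammatory monocytes were highest with LPS+MIC-1, mostly through S100a8. The 8 of 9 with a row summed to 4.78 to 6.79 FPKM in controls, 7.29 to 44.2 in the LPS group and 695 to 760.3 with LPS+MIC-1. S100a8, a calcium-binding protein, was 651, 676 and 718 FPKM there and Mmp8, a collagenase, 35.7, 21.4 and 35.2, while S100a9 stayed at or under 0.482 FPKM, Retnlg was 0 in those libraries and Ly6c2 in every library. Ccr2 was also highest there, at 2.39 to 4.31 FPKM against 1.60 to 1.63 in controls and 0.925 to 1.93 with LPS. Cxcr2 (0.709 to 0.891 in controls, 0.867 to 1.93 with LPS and 0.953 to 1.48 with LPS+MIC-1) was not. Csf3r (0.688 to 1.74, 0.0962 to 0.606 and 0.266 to 1.75 in that order) overlapped between groups. The part of these markers in the changes of Abca1, Abcg1, Pltp and Lpl was not tested.

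**Figure D2:**
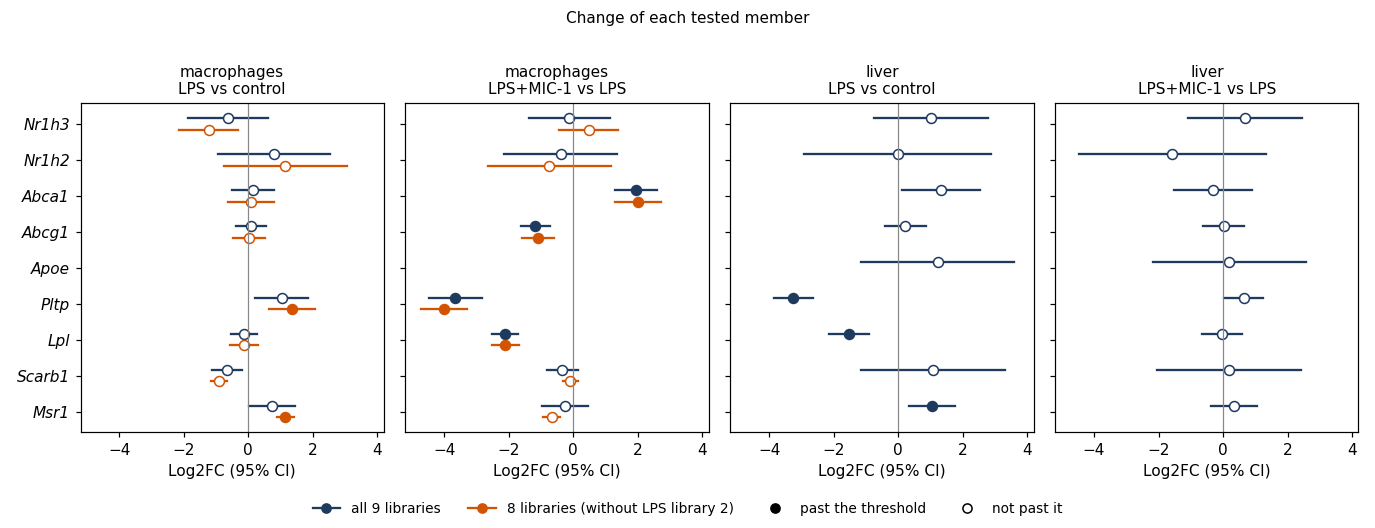
Log2FC (x axis, log2(FPKM + 0.5) scale) of each tested member with its 95% confidence interval, for LPS against control and LPS+MIC-1 against LPS in macrophages (9 and 8 libraries) and liver (9 libraries). Filled points passed the threshold; Abca1 was higher and Abcg1, Pltp and Lpl lower with LPS+MIC-1 in macrophages, whereas the liver passed it for Pltp, Lpl and Msr1 with LPS and for no member between LPS+MIC-1 and LPS.

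In liver Pltp and Lpl fell and Msr1 rose with LPS, and no member passed the threshold between LPS+MIC-1 and LPS. In liver a call needed an adjusted P-value under 0.05 and the same size of Log2FC. Between LPS and control 3 of 9 members were called, 1 higher and 2 lower, against 24.6% of the 10147 genes tested (13.4% higher, 11.2% lower). For LPS+MIC-1 against LPS limma called 0 of 9 members and 0% of all genes, and 1 member and 364 genes (3.59%) had an unadjusted P below 0.05. With LPS+MIC-1 against control the same 3 members were called, against 25.2% of all genes (13.8% higher, 11.5% lower). The liver was sequenced as whole tissue, where fewer cells of a type and less RNA per cell cannot be told apart.

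Pltp had the largest Log2FC of the members in liver. It was 76.6, 118 and 130.3 FPKM in controls, 8.88, 14.6 and 9.25 in the LPS group and 18.1, 14.6 and 17.9 with LPS+MIC-1. Every treated library was far below the controls, and the treated groups met at library 2. The mean was 9.91-fold lower with LPS than in controls (Log2FC -3.25, SE 0.27, adjusted P-value 0.000373 by limma) and 6.41-fold lower with LPS+MIC-1 (Log2FC -2.62, adjusted P-value 0.000731). Between LPS+MIC-1 and LPS its Log2FC was 0.63 with an interval from 0.03 to 1.24, an unadjusted P of 0.0423 and an adjusted P-value of 0.997.

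Lpl was 32.0, 25.8 and 24.8 FPKM in controls, 8.90, 13.0 and 6.56 in the LPS group and 8.68, 11.6 and 6.98 with LPS+MIC-1. All treated libraries were below all controls, and the treated groups overlapped throughout. It was 2.90-fold lower with LPS (Log2FC -1.53, SE 0.28, adjusted P-value 0.00625 by limma) and 3.02-fold lower with LPS+MIC-1 (-1.56, adjusted P-value 0.00501). Between the treated groups the Log2FC was -0.04, with an interval from -0.67 to 0.59.

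Msr1, low in whole liver, was 1.18, 2.79 and 3.10 FPKM in controls, 4.36, 6.95 and 4.43 in the LPS group and 7.12, 7.01 and 6.00 with LPS+MIC-1, from about 15 to 134 reads. Each treated library was above each control. Its Log2FC was 1.06 with LPS (adjusted P-value 0.0318 by limma) and 1.41 with LPS+MIC-1 (adjusted P-value 0.0107). The first call was lost without control 1 or 2, without any single LPS library, or without LPS+MIC-1 library 1, at Log2FC values from 0.71 to 1.20. It was also lost with a pseudocount of 1 (0.93), without the filter on low genes (adjusted P-value 0.0508 by limma), with only these groups in the fit (adjusted P-value 0.0772), with GC content and length taken out (0.96, adjusted P-value 0.0558) and after rescaling to the same sum. The marker sums of macrophages, Kupffer cells, and neutrophils and inflammatory monocytes were higher with treatment, but their members went different ways. The other sums overlapped between controls and treated groups. In the order control, LPS and LPS+MIC-1, hepatocyte markers summed to 24081 to 51424, 26447 to 27272 and 21557 to 33979 FPKM. Liver endothelial markers summed to 36.2 to 44.8, 29.7 to 41.9 and 38.3 to 42.8, and stellate cell and fibroblast markers to 125 to 237, 108 to 153 and 71.9 to 135. Macrophage markers (6 of 7 with a row) summed to 28.6 to 43.2 FPKM in controls, 127 to 625 in the LPS group and 127 to 436 with LPS+MIC-1. Kupffer cell markers (7 of 7) summed to 69.6 to 85.2, 96.4 to 109 and 113 to 145 FPKM, and markers of neutrophils and inflammatory monocytes (8 of 9) to 36.4 to 52.4, 332 to 404 and 190.5 to 434. Of the Kupffer cell markers, Clec4f, a lectin of these cells, was 13.0 to 30.1 FPKM in controls, 2.85 to 6.32 in the LPS group and 4.33 to 4.83 with LPS+MIC-1. Vsig4, a complement receptor, was likewise lower, at 3.02 to 6.70, 1.22 to 1.497 and 0.647 to 1.72 FPKM, and Timd4 was 1.95 to 3.39, 1.92 to 2.10 and 0.942 to 1.88. The complement genes C1qa, C1qb and C1qc were higher in every treated library than in every control and carried the sum. In the macrophage list Cd14, the LPS coreceptor, went from 3.49 to 10.8 FPKM in controls to 84.2 to 569 with LPS and 56.7 to 407 with LPS+MIC-1, whereas Csf1r was 3.49 to 7.32, 5.49 to 8.73 and 5.11 to 6.97 and Ptprc was 0 in every control. In the neutrophil list Cxcr2, a chemokine receptor, was lower, at 26.5 to 42.6, 3.89 to 10.1 and 3.59 to 7.79 FPKM. The part of these cells in the Msr1 change was not tested.

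**Figure D3:**
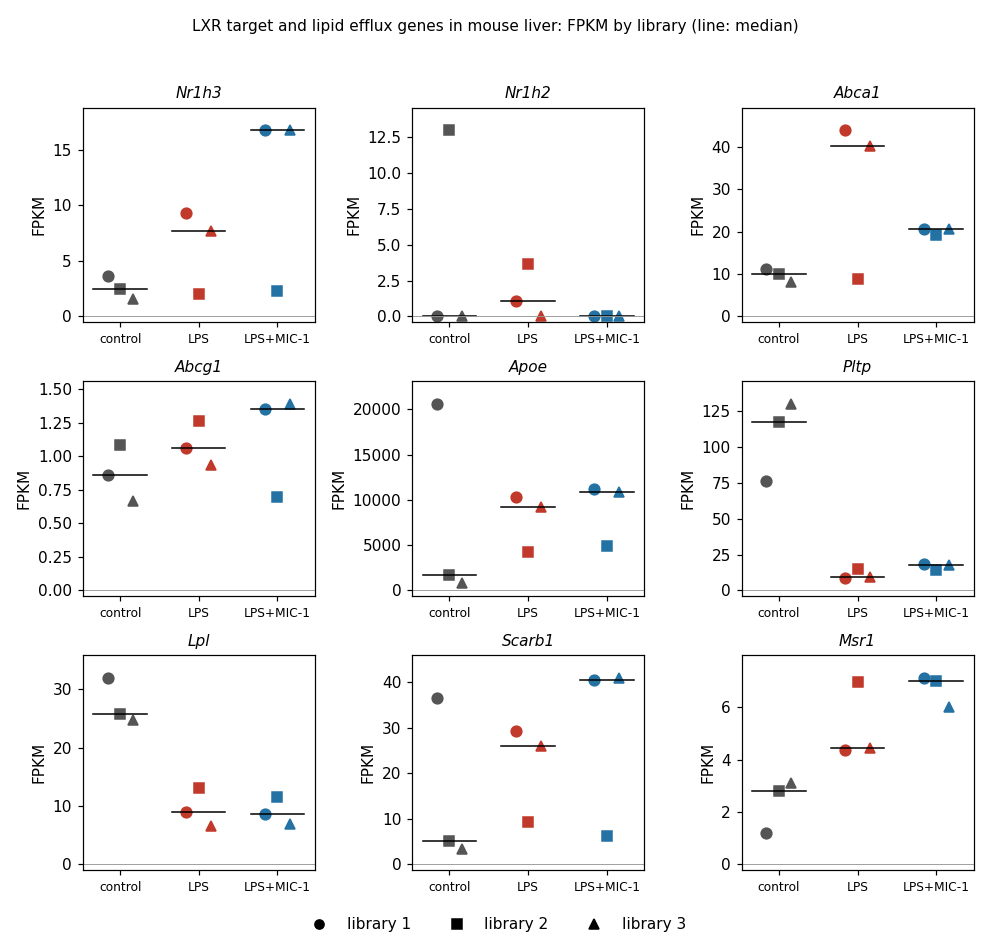
FPKM (y axis, from 0) of the 9 members with a row in mouse liver, by treatment (x axis). Each point is a library, its shape gives the library number and the line is the median of 3. Pltp and Lpl were lower in all treated libraries, and Abca1 (LPS), Nr1h3, Apoe and Scarb1 split library 2 (square) from libraries 1 and 3 within the treated groups.

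In several other liver members the libraries of 1 group split. Abca1 was 11.2, 9.95 and 8.08 FPKM in controls, 43.9, 8.76 and 40.2 in the LPS group and 20.7, 19.1 and 20.6 with LPS+MIC-1. LPS libraries 1 and 3 were the highest, LPS library 2 was within the control range, and the LPS+MIC-1 libraries lay between, above all controls. Its Log2FC with LPS was 1.33 (adjusted P-value 0.0786 by limma), not past the threshold, and 2.07 (adjusted P-value 0.000345) without LPS library 2. With GC content and length taken out it was called, at 1.90 (adjusted P-value 0.0304). With LPS+MIC-1 it was 1.02 against control (adjusted P-value 0.156, and 0.00241 in the fit without LPS library 2). This value was called with only these groups in the fit (adjusted P-value 0.00708) and, at 1.68, with GC content and length taken out (adjusted P-value 0.0440). Against LPS it was -0.31 and, without that library, -1.04 (adjusted P-value 0.0560).

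Nr1h3 was 3.64, 2.45 and 1.53 FPKM in controls, 9.28, 2.03 and 7.72 in the LPS group and 16.7, 2.26 and 16.8 with LPS+MIC-1. Libraries 1 and 3 of both treated groups were above all controls and library 2 of both was within their range. The Log2FC between LPS+MIC-1 and control was 1.68 (adjusted P-value 0.117 by limma), and 2.57 (adjusted P-value 0.0177) without LPS+MIC-1 library 2.

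Scarb1, through which liver takes up HDL cholesterol, was 36.5, 5.16 and 3.47 FPKM in controls, 29.3, 9.28 and 25.9 in the LPS group and 40.5, 6.29 and 40.9 with LPS+MIC-1. Control 1 stood with libraries 1 and 3 of the treated groups, and the groups overlapped. Apoe, an abundant hepatocyte product, split the same way, at 20615, 1733 and 872 FPKM in controls, 10313, 4230 and 9219 in the LPS group and 11190.3, 4934 and 10824 with LPS+MIC-1. Neither was called, at adjusted P-values of 0.304 to 0.997 over the liver comparisons, but without control 1 the Log2FC of Apoe was 2.59 with LPS (adjusted P-value 0.0117) and 2.78 with LPS+MIC-1 (adjusted P-value 0.00828).

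The log2 gap between libraries 1 and 3 and library 2 was 1.20 and 1.16 for Apoe, 1.82 and 2.65 for Nr1h3 and 1.52 and 2.60 for Scarb1 with LPS and LPS+MIC-1. For control 1 against controls 2 and 3 it was 4.07 for Apoe and 2.97 for Scarb1. GC content of the transcripts was 56.9% to 60.7% in these genes, above the third quartile of genes (54.8%). Pltp, at 57.7%, had gaps of -0.66 (LPS), 0.30 (LPS+MIC-1) and -0.69 (control). In the same order the gaps were 2.20, 0.11 and 0.30 for Abca1, at 47.5%, and -0.73, -0.55 and 0.33 for Lpl, at 43.6%. Over all genes the gaps correlated with GC content at a Spearman rho of -0.13 (LPS), 0.05 (LPS+MIC-1) and 0.02 (control). Gapdh moved with the same libraries, and its part and that of depth were not tested.

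Abcg1 stayed between 0.668 and 1.39 FPKM in all liver libraries, about 14 to 69 reads, and the groups overlapped (adjusted P-values 0.504 to 0.997 by limma). Nr1h2 was listed at 0, 13.0 and 0 FPKM in controls, 1.08, 3.65 and 0 with LPS and 0 in every LPS+MIC-1 library. Its values passed no test, and zeros of a receptor that liver uses may be failed estimates.

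In untreated liver Apoe was the highest member, followed by Pltp (108 ± 28.1 FPKM, n = 3), Lpl (27.5 ± 3.90), Scarb1 (15.1 ± 18.6), Abca1 (9.74 ± 1.56), Nr1h3 (2.54 ± 1.06), Msr1 (2.36 ± 1.03) and Abcg1 (0.871 ± 0.209), with Nr1h2 not placed. Apoe, Pltp and Lpl did not overlap with their neighbours, except Lpl with Scarb1, and of the rest Scarb1 and Abca1, Nr1h3 and Msr1 did. The tables were scaled separately, so levels in macrophages and liver were not tested against each other.

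The rest of the pathway was followed with 50 genes in 5 lists, of which Apoc2 was not analysed here. In macrophages 32 were tested. Between LPS and control 0 were called with 9 libraries (19 at an unadjusted P below 0.05), and 12 higher and 6 lower with 8. Over all genes those shares were 49.8% at that P with 9 libraries, and 16.3% called higher and 17.9% lower with 8. Their median Log2FC was then 0.75, beside -0.02 over all genes. For LPS+MIC-1 against LPS, 1 was called lower with 9 libraries, and 5 higher and 8 lower with 8, at a median of -0.38 beside 0.01. Over all genes 1.81% were called lower with 9 libraries, and 11.3% higher and 12.0% lower with 8. The same shares stand behind the counts of each list that follow.

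Among LXR partners and coregulators in macrophages with 8 libraries, 4 of 7 were called higher with LPS and 0 lower. Rxra, the heterodimer partner, was 0.692, 1.51 and 0.708 FPKM in controls, 4.79 and 4.16 in LPS libraries 1 and 3 and 0.507 in LPS library 2, with 1.66, 0.273 and 1.00 in LPS+MIC-1, a Log2FC of 1.80 with LPS and of -1.87 for LPS+MIC-1 against LPS (adjusted P-values 0.00551 and 0.00549 by limma). Rxra passed the filter on low genes through LPS libraries 1 and 3, which also carry both calls, so the calls are not independent of the filter. Ncoa3, a coactivator, was lower with LPS+MIC-1 than with LPS (-1.35). Ppard, the fatty acid receptor PPARδ, was 6.06 to 6.73 FPKM in controls and 30.8 to 31.3 with LPS+MIC-1. It was 18.8 and 20.1 FPKM in LPS libraries 1 and 3, between these ranges, and 6.34 in LPS library 2. Between LPS+MIC-1 and control Ppard was called with 9 libraries too (Log2FC 2.21, adjusted P-value 0.00567 by limma).

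Of 9 tested further LXR targets, 2 were called higher and 4 lower with LPS in the 8 libraries. The higher ones were Smpdl3a, at 16.5 to 22.7 FPKM in controls and 40.7 and 40.6 in LPS libraries 1 and 3, and Arl4c. Arl4c was 0.623 to 0.651 FPKM in controls and 1.80 and 2.13 in those libraries, which carried it past the filter on low genes. The lower ones were Scd1 (Log2FC -2.42) and Scd2 (-1.75), which desaturate fatty acids, Fasn (-2.04), which makes them, and Srebf1 (-1.15), their regulator. Against control with LPS+MIC-1 in the same 8 libraries, Scd1 (-1.67), Fasn (-1.08) and Scd2 (-1.04) were called lower as well. Cd5l, a secreted macrophage protein, was 4.47 to 5.46 FPKM in controls, up to 4.84 in the LPS group and 0.799 to 1.36 with LPS+MIC-1. It was called lower with LPS+MIC-1 in both fits, at -1.66 against LPS (adjusted P-value 0.00124 by limma) and -1.77 against control (adjusted P-value 0.000831) with 9 libraries.

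Of the other scavenger and lipoprotein receptors, 5 of 7 were called higher and 1 lower with LPS in the 8 libraries, and 2 higher and 4 lower between LPS+MIC-1 and LPS. Cxcl16, a membrane chemokine that binds oxidized lipoprotein, was 15.8 to 21.9 FPKM in controls, 168 and 164 in LPS libraries 1 and 3, 18.9 in LPS library 2 and 10.3 to 18.9 with LPS+MIC-1 (Log2FC 3.13 and -3.59). Stab1 (2.08), a clearance receptor, rose with LPS. Lrp1 (-1.60), an endocytic receptor, was lower and Colec12 (1.75), a collectin, higher between LPS+MIC-1 and LPS. Cd36, the fatty acid and oxidized lipoprotein receptor, was higher with LPS+MIC-1 than in controls (1.51 with 8 libraries), at 168 to 240.1 FPKM against 59.3 to 83.8. LPS libraries 1 and 3 were in the LPS+MIC-1 range, at 208 and 219 FPKM, and LPS library 2 was at 59.5.

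Of 6 genes of sterol storage and traffic, Npc2, which carries cholesterol out of lysosomes, was the 1 called, at 172 to 255 FPKM in controls, 1281 and 1227 in LPS libraries 1 and 3, 259 in LPS library 2 and 182 to 247 with LPS+MIC-1 (Log2FC 2.65 and -2.50). Of the HDL and lipase partners, 3 were tested, and Angptl4, an inhibitor of lipoprotein lipase, was called lower with LPS (-2.93) and higher between LPS+MIC-1 and LPS (1.39), yet lower than in controls (-1.53). With 9 libraries the smallest P-values between LPS and control belonged to Smpdl3a (0.86), a phosphodiesterase, Scd2 (-1.34) and Scd1 (-1.79), none called (adjusted P-value 0.0777 for each by limma). Those between LPS+MIC-1 and LPS belonged to Cd5l, Lrp1 (-1.25, adjusted P-value 0.0151) and Lmf1, which matures lipases (0.39, adjusted P-value 0.0226), and Lmf1 was also among the smallest against control (0.61, adjusted P-value 0.00343), under the fold threshold.

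**Figure D4:**
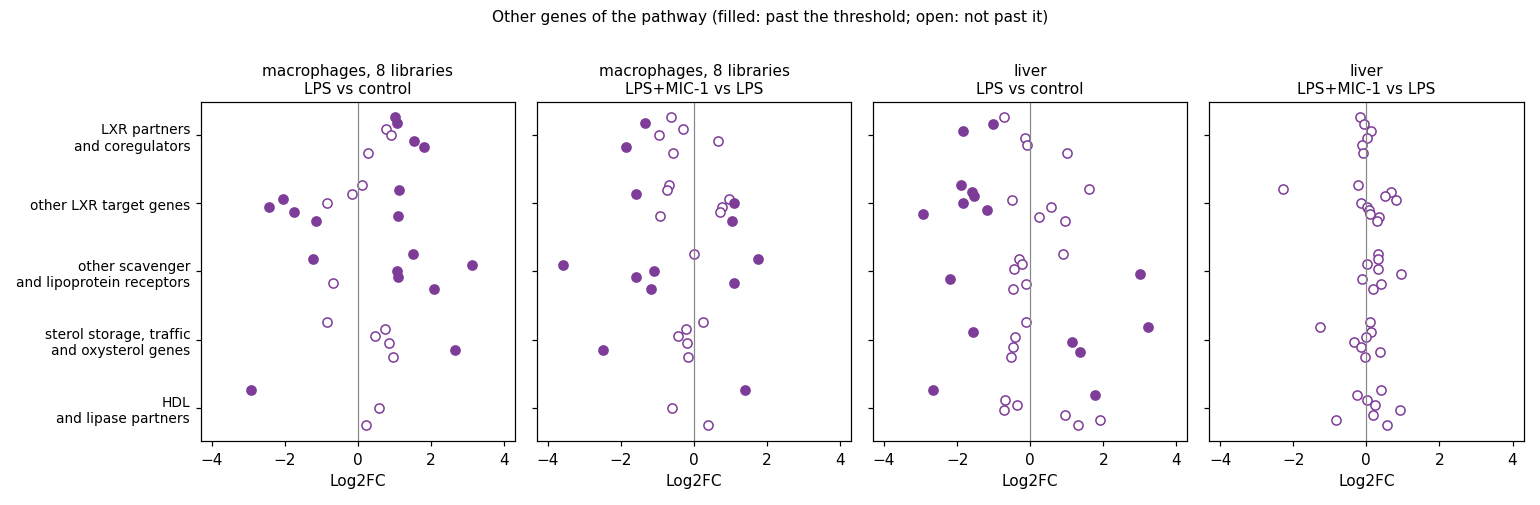
Log2FC (x axis) of each tested gene of the 5 pathway lists (y axis), in macrophages with 8 libraries and in liver with 9. Filled points passed the threshold. In macrophages many passed it in both comparisons; in liver 16 passed it for LPS against control and 0 for LPS+MIC-1 against LPS.

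In liver 41 pathway genes were tested, and 5 were called higher and 11 lower with LPS, against 13.4% and 11.2% of all genes, at a median Log2FC of -0.37 beside 0.15 over all genes. With LPS+MIC-1 against control, 6 were called higher and 9 lower, against 13.8% and 11.5%. Scd1 was 802 to 1637 FPKM in controls, 93.3 to 213 in the LPS group and 108 to 218 with LPS+MIC-1 (Log2FC -2.93 and -2.82 against control, adjusted P-values 0.00316 and 0.00307 by limma). Fasn (-1.84 and -1.98) and the sterol exporter Abcg5 (-1.90 and -2.11) were lower in both treated groups. So were Scarf1, a scavenger receptor of endothelium (-2.20 and -2.33), and the corepressor Ncor1 (-1.83 and -1.69).

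Marco, a scavenger receptor of macrophages, was 2.18 to 6.79 FPKM in liver controls, 23.1 to 40.4 in the LPS group and 38.4 to 75.6 with LPS+MIC-1 (Log2FC 3.01 and 3.96, adjusted P-values 0.00305 and 0.000990 by limma), beside the macrophage marker sums given with Msr1, whose part was not tested. Ch25h, which makes an oxysterol, was 0, 0.434 and 0 FPKM in controls. Its LPS libraries read 7.46, 1.93 and 9.59 FPKM, while LPS+MIC-1 libraries 1 to 3 read 1.55, 5.46 and 0.666. The fitted Log2FC of 3.24 between LPS and control depends on the added 0.5 FPKM. Ch25h passed the filter on low genes through its treated libraries, so this value is not independent of the filter. Angptl4 (1.77) was higher with LPS, opposite in sign to its value in the macrophages, a difference that was not tested. Npc2 was higher with LPS+MIC-1 than in controls (1.72), at 22.2 to 33.1 FPKM against 6.55 to 10.9. The LPS group was above the controls too, at 15.3 to 28.5 FPKM. Between LPS+MIC-1 and LPS in liver, 0 pathway genes were called, and 1 had an unadjusted P below 0.05. The smallest P-values belonged to Abcg8, the partner of Abcg5 (-2.27), Marco (0.95) and Gpihbp1, which holds lipoprotein lipase on capillaries (0.93), each at an adjusted P-value of 0.997 by limma. Only LPS libraries 1 and 3 held Abcg8 above 0.697 FPKM, at 6.33 and 3.09. They carried Abcg8 past the filter on low genes and also carry its Log2FC, so that value is not independent of the filter.

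Rescaled to the same sum, the median Log2FC of all liver genes moved from 0.15 to -0.18 (LPS against control), from -0.01 to -0.26 (LPS+MIC-1 against LPS) and from 0.15 to -0.43 (LPS+MIC-1 against control), and the share of called genes that were higher from 54.4% to 30.1% and from 54.5% to 17.2% in the comparisons with control. Pltp (-3.61 and -3.26) and Lpl (-1.89 and -2.20) stayed called lower in both, and Msr1 (0.75 and 0.83) stayed higher and was no longer called.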

How the data were processed

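The 9 members with a row of the set were read from FPKM tables of 9 RAW264.7 and 9 liver libraries. The reads, sequenced at BGI, were pseudoaligned by the authors with kallisto 0.45.0 (RefSeq transcripts, mm9), who summed them per gene and deposited FPKM values from DESeq2 1.20.0. Deposited comparisons (fold changes and p-values) were not used. Table columns name the treatment but carry no replicate number, and 0 columns were left unmatched to a group. The members and lists were chosen with earlier results of these data known.

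In each table the genes whose FPKM averaged more than 1 were tested on log2(FPKM + 0.5) with limma 3.58.1 (R 4.3.3, eBayes with trend), the 3 groups in 1 fit, with Benjamini-Hochberg adjustment over all genes tested. Whether low members and low pathway genes pass that filter depends on their higher group. All members are named. Of the pathway lists, up to 8 called genes with non-overlapping groups are named per comparison by absolute Log2FC, chosen without LPS library 2 in macrophages, and the 3 with the smallest P-value where fewer than 3 were called. A liver gene that this rule selects is not reported here. Genes named to check libraries (Ccl5, Gapdh, Eif4g1, Rab7), Srebf1, Arl4c, Lpcat3, and values repeated for a named gene in another comparison were chosen after their values were seen. Gene lengths and GC content came from GENCODE vM1 (mm9). Depth was estimated with an assumed fragment length of 200 bases from low values, of which 75.3% to 79.9% lay within 0.1 of a whole multiple of 1 read. The estimate and the FPKM give no counting interval. The fit was tested on simulated data for LPS against control. A log2 change of 2 was called in 73% of changed genes with 9 macrophage libraries, 89% with 8 and 64% in liver. Calls with the wrong sign numbered 0. Genes simulated without a change gave 0, 1 and 9 calls in that order. The measured macrophage libraries gave 0 calls for this comparison with 9 libraries and 3386 with 8. The simulated 73% therefore does not describe the power of the 9-library fit on the measured data. Alternatives covered the pseudocount, filter, scaling, groups in the fit, prior, fold threshold, GC content and length, close libraries averaged and each library left out. Python 3.11.15, numpy 2.4.6, pandas 2.3.3, scipy 1.17.1 and matplotlib 3.10.9 were used.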

Additional observations from a re-analysis of the deposited data

Results flagged for a closer look

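In 5 cases the treated libraries of the 2 tissues lay on opposite sides of the mean log2(FPKM + 0.5) of the group they were compared with, all 3 on one side in macrophages and all 3 on the other in liver (Log2FC with 9 libraries). The difference between the tissues was not tested, because the tables were scaled separately.

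Between LPS and control, Pltp was lower in liver (-3.25) and higher in macrophages (1.04, not called with 9 libraries). In macrophages LPS library 2 (34.3 FPKM) was within the control range of Pltp (22.0 to 35.4). Scarb1 was higher in liver (1.07) and lower in macrophages (-0.65), neither of them past the threshold. On the FPKM scale LPS library 2 of the liver (9.28) lay below the control mean of Scarb1 (15.1).

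Between LPS+MIC-1 and LPS, Abca1 was lower in liver (-0.31, not called) and higher in macrophages (1.95). In liver LPS library 2 (8.76 FPKM) lay below every LPS+MIC-1 library of Abca1 (19.1 to 20.7). Pltp was higher in liver (0.63, not called), where the groups met at library 2, and lower in macrophages (-3.66). Msr1 was higher in liver (0.35) and lower in macrophages (-0.26), and neither value was called. The liver groups overlapped for Msr1, and macrophage LPS library 2 (206 FPKM) was below every LPS+MIC-1 library (257 to 329).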

How the results depend on the processing

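Of 440 values of called members under other settings 364 kept direction and call and 76 lost the call. Of 934 of uncalled members 863 stayed so, 25 gained a call and 46 changed sign. The cause was not tested. No paired analysis was possible because the table columns carry no replicate number. Averaging the close libraries 1 and 3 leaves few degrees of freedom. Low read numbers limit Nr1h2, Nr1h3 and macrophage Apoe.

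With 9 macrophage libraries, LPS+MIC-1 against LPS called 0 members and 0 pathway genes with only these groups in the fit, and 0 and 0 with libraries 1 and 3 averaged. Against control it called 2 members after rescaling to the same sum, 0 members and 0 pathway genes with averaging, and 6 pathway genes with only these groups in the fit. With 8 libraries and averaging, LPS against control called 1 member and 11 pathway genes, LPS+MIC-1 against LPS 2 and 7, and against control 2 and 3. With no minimum fold, the pathway genes called were 20 between LPS+MIC-1 and LPS and 15 against control.

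Leaving out each library in turn, LPS against control in 9 macrophage libraries called 0 to 2 members and 0 to 18 pathway genes, the upper values without LPS library 2. LPS+MIC-1 against LPS called 2 to 4 members and 1 to 13 pathway genes, and against control 1 to 4 and 1 to 7. With 8 libraries LPS against control called 1 to 3 members. In liver LPS+MIC-1 against LPS called 0 to 1 pathway genes. Where 1 library was left in a group, it is assumed to vary like the others.

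Rescaling to the same sum turned the Log2FC of Abca1 to -0.38 and Abcg1 to -0.59 (LPS against control, 9 libraries; -0.68 and -0.96 with 8) and, between LPS+MIC-1 and LPS, of Msr1 to 0.24, Nr1h3 to 0.20 and Scarb1 to 0.15 (Msr1 0.14 and Scarb1 0.70 with 8). In liver it turned Abcg1 to -0.018 (LPS against control), -0.17 (LPS+MIC-1 against LPS) and -0.19 (against control), and Apoe to -0.10 and Scarb1 to -0.087 (LPS+MIC-1 against LPS). Taking out GC content and length turned macrophage Lpl to 0.050 (0.079 with 8 libraries) and Abca1 to -0.13 (8 libraries) between LPS and control, and in liver Nr1h2 to 0.10 (LPS against control) and Lpl to 0.029 (LPS+MIC-1 against LPS). Averaging turned Nr1h2 to -0.020 (LPS+MIC-1 against control, either number of libraries) and Abcg1 to -0.034 (LPS against control, 8 libraries), and a pseudocount of 0.1 turned liver Nr1h2 to 0.59.

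Leaving out a library changed the sign of uncalled members over these ranges. For macrophage LPS+MIC-1 against LPS they were -1.11 to 0.51 for Nr1h2 (-1.46 to 0.17 with 8 libraries) and -0.49 to 0.48 for Nr1h3, and against control -0.30 to 1.32 for Nr1h2. For LPS against control with 8 libraries they were -0.0022 to 0.21 for Abca1 and -0.058 to 0.12 for Abcg1. In liver they were -0.81 to 1.57 for Nr1h2 (LPS against control) and, for LPS+MIC-1 against LPS, -1.04 to 0.089 for Abca1, -0.087 to 0.24 for Abcg1, -0.21 to 0.58 for Apoe, -0.26 to 0.21 for Lpl and -0.31 to 1.06 for Scarb1.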
